A study of Drosophila melanogaster with 6 samples.

Results

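Genes of Drosophila melanogaster that are known only by an annotation number, CG followed by digits, were examined where their transcript signal was lower in flies fed lithocholic acid (LCA). A gene was counted as a member when its symbol had that form, every LCA array lay below every control array, and the mean signal, taken on the log2 scale, was lower by at least 1.50-fold. Of 11982 genes with a probe set of their own, 5209 had a CG number, and 112 of these were members. The members were picked by the comparison of the diets, so their differences are a description and carry no test. The same rule took 2.15% of CG-numbered genes, 1.62% of the 6773 genes with a name (110) and 1.85% of all genes. Turned the other way, toward higher signal with LCA, it took 3.36% of CG-numbered genes (175), 1.27% of named genes (86) and 2.18% of all genes.

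The 6 arrays carried biotin-labelled RNA from pools of 10 whole male flies, aged 30 days, of the strain W1118, which the labels call wild type and which carries a mutation of the white eye colour gene. Control flies (3 arrays) had lived on control food, and LCA flies (3 arrays) on the same kind of food with 50 µmol/l LCA, a secondary bile acid of vertebrates that forms in the gut by bacterial action. Whether the pools were raised apart is not stated in the labels, so the spreads are those between pools and may be partly technical. Each array gave 1 value per gene, a log2 signal on a scale common to the arrays. Signals of different probe sets depend on the probes and are not amounts of transcript.

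A CG number is given to a gene model of the fly genome, and a gene keeps it alone until someone names the gene after a mutant, a protein or a function. Many such genes nevertheless belong to well known protein families. In the fly, long fatty acids and the hydrocarbons of the cuticle are built by elongases, desaturases and fatty acyl-CoA reductases in the oenocytes, secretory cells under the abdominal cuticle, while the fat body stores fat and glycogen and secretes immune proteins into the blood. Serine proteases, their catalytically dead homologues and Kunitz-type inhibitors act in digestion, in blood and in the male reproductive tract. Of the 112 members, 45 could be placed in such a group from textbook knowledge, 10 more carried a serine protease or homologue number as a synonym in the gene table, and 57 were left without a role.

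The samples as a whole set the frame for these values. The female markers, yolk and eggshell genes, were dim, with 9 of 12 below the 25th percentile of all genes, and the 18 markers of the male accessory gland and ejaculatory tract had a median log2 signal of 11.93. limma placed 0 of 11982 genes under an adjusted p of 0.05 (lowest 0.0750), and 2169 under an unadjusted p of 0.05, of which 1171 were lower and 998 higher with LCA. This split depended on the scaling, with 1585 lower and 666 higher when arrays were centred on their medians, and 1358 and 827 after quantile normalization. Markers of other tissues differed with diet in their means. All 25 testis markers were higher with LCA, 12 of them without overlap, and so were all 12 photoreceptor markers, 11 of them without overlap. Higher without overlap were 11.2% of all genes. The log2 of the summed testis marker signal ran from 14.5 to 15.5 in control arrays and from 15.55 to 15.8 in LCA arrays, and that of the photoreceptor markers from 14.74 to 14.79 and from 15.08 to 15.15. All 12 neuron markers were higher (median 0.29), and 11 of 12 haemocyte markers were lower (median −0.34). The part of these tissues in the members' differences was not tested.

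The members' differences ran from −2.09 to −0.59 with a median of −0.78, or 1.72-fold, where the median over all genes was 0.00 (−0.0016) and over CG-numbered genes 0.03. In 24 members the difference was 2-fold or more (0.461% of CG-numbered genes), and in 3 of these, CG16904, CG17560 and CG15531, it was 3-fold or more. LCA array 3 was the lowest LCA array in 89 members (79.5%), against 32.4% of all genes, 30.4% of CG-numbered genes and 34.0% of named genes. Control array 3 was the highest control array in 71 members (63.4%), against 33.0% of all genes, 41.0% of CG-numbered genes and 26.9% of named genes. Members were chosen on these array values and the genes set beside them were not, so these shares are not like for like. The 110 named genes that met the rule were not counted in this way, so neither trait can be called particular to the members. Relative to the control mean of each gene, the members' median was −0.61 in LCA array 1, −0.73 in LCA array 2 and −1.04 in LCA array 3. It was −0.06, −0.08 and 0.09 in control arrays 1 to 3. The larger SD was in the LCA arrays for 79 members and in the control arrays for 33.

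**Figure D1:**
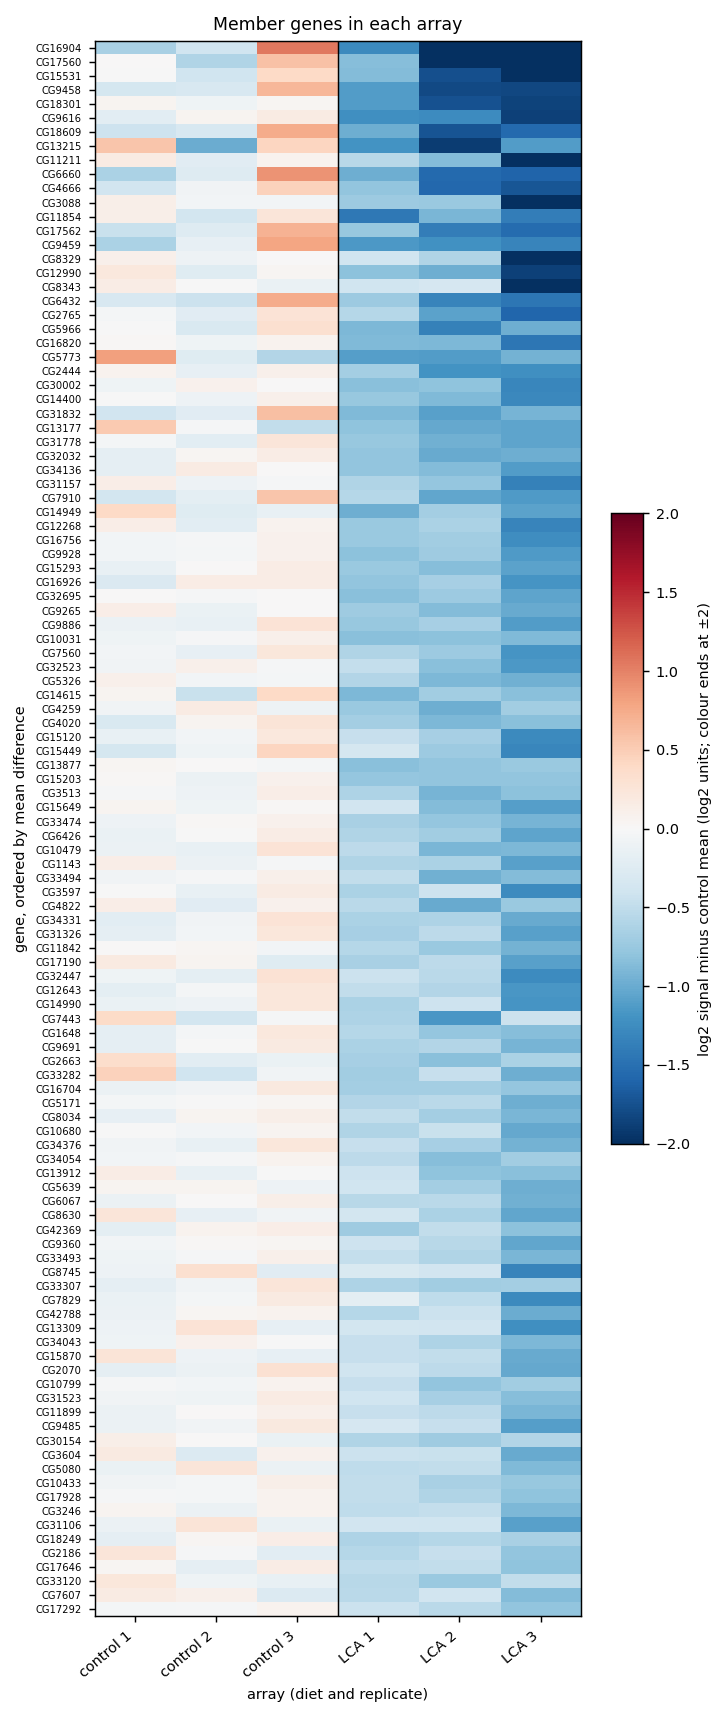
Log2 signal of each of the 112 member genes in each of the 6 arrays, as the difference from the gene's control mean (colour, log2 units), with genes ordered from the largest mean difference (top) to the smallest. The LCA columns are blue throughout, LCA array 3 is the darkest in most rows, and control array 3 is red in the upper rows, among them CG16904 and CG6660.

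Many of the largest differences belonged to enzymes that build and modify long fatty acid chains. Of the 12 members with the largest differences, 4 were elongases of the ELO family, 1 was a fatty acyl-CoA reductase and 1 an acyl-CoA desaturase. The 13 members of these families had a median difference of −1.23 (−1.18 without LCA array 3), and the other 99 members one of −0.77. Values are given for arrays 1, 2 and 3 of each diet in that order. CG16904, an elongase, read 8.57, 8.81 and 10.27 under control and 7.94, 7.02 and 6.43 under LCA, a difference of −2.09 ± 0.54 (SE from limma, as in all differences that follow), or 4.25-fold. Control array 3 stood above the other control arrays by 1.58, and all LCA arrays lay below all control arrays. CG9458, its relative, read 7.64, 7.68 and 8.66 under control and 6.87, 6.18 and 6.18 under LCA (−1.58 ± 0.32). CG9459, of the same family, read 4.42, 4.89 and 5.84 under control and 3.91, 3.83 and 3.73 under LCA (−1.23 ± 0.33). In both, control array 3 was again the highest, and in CG9459 the LCA arrays lay close together near the dim end of the scale. CG18609 read 6.53, 6.62 and 7.68 under control and 5.96, 5.22 and 5.39 under LCA (−1.42 ± 0.34). CG6660 read 4.85, 5.22 and 6.38 under control and 4.50, 3.93 and 3.88 under LCA (−1.38 ± 0.39). These elongases shared the high control array 3 and had LCA array 1 as the highest of the LCA arrays.

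The other 2 elongases were bright and their control arrays lay close together. CG5326 read 10.51, 10.35 and 10.38 under control and 9.82, 9.51 and 9.45 under LCA (−0.82 ± 0.12). Of 2 other probe sets of CG5326, 1 differed by a similar amount (−0.77), and the other, near the bottom of the scale, was at −0.06. CG31523 read 11.15, 11.14 and 11.39 under control and 10.83, 10.55 and 10.37 under LCA (−0.64 ± 0.14), and its difference was −0.53 without LCA array 3. Over the whole ELO family, 18 genes were measured, 16 were lower with LCA and 10 of them did not overlap. Of these 10, 7 are members, which cannot overlap by the rule. Lower without overlap were also 13.0% of CG-numbered and 16.5% of named genes. The family median was −0.32. CG31141 (0.58) and CG17821 (0.39) were higher in mean, and eloF, which makes long hydrocarbon precursors in females, was dim and at −0.11.

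Fatty acyl-CoA reductases reduce activated fatty acids, a step in the making of waxes and hydrocarbons. CG17560 read 7.90, 7.29 and 8.48 under control and 7.03, 5.88 and 5.64 under LCA (−1.71 ± 0.43). CG17562, the gene next to it, read 6.17, 6.36 and 7.32 under control and 5.86, 5.23 and 5.07 under LCA (−1.23 ± 0.34). In both, LCA arrays 2 and 3 lay well below LCA array 1, which was nearer to the lowest control array. CG12268 read 8.52, 8.18 and 8.46 under control and 7.65, 7.75 and 7.07 under LCA (−0.90 ± 0.20). CG4020 was among the 6 dimmest members and read 4.50, 4.86 and 5.07 under control and 4.13, 3.90 and 3.98 under LCA (−0.81 ± 0.16). Of 15 measured reductases, 12 were lower with LCA, 10 without overlap, with a median of −0.46. Of these 10, 4 are members, which cannot overlap by the rule. Over all 11982 genes, 1792 were lower without overlap. Besides the 4 members, 2 named reductases met the same rule, FarO (−1.60) and Sgp (−2.17). Sgp had a larger difference than any member.

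Acyl-CoA desaturases put double bonds into fatty acids. CG15531 read 7.49, 7.10 and 7.90 under control and 6.64, 5.74 and 5.25 under LCA (−1.62 ± 0.37), with LCA array 3 the lowest and control array 3 the highest. CG8630 read 9.58, 9.17 and 9.26 under control and 8.96, 8.71 and 8.29 under LCA (−0.68 ± 0.19), and its groups were separated by 0.21. Of 7 measured desaturases 6 were lower and 4 did not overlap, with a median of −0.26. Of these 4, 2 are members, which cannot overlap by the rule, and 1792 of all 11982 genes were lower without overlap. CG9743 was the exception in mean (0.24), with control arrays from 8.72 to 10.11.

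**Figure D2:**
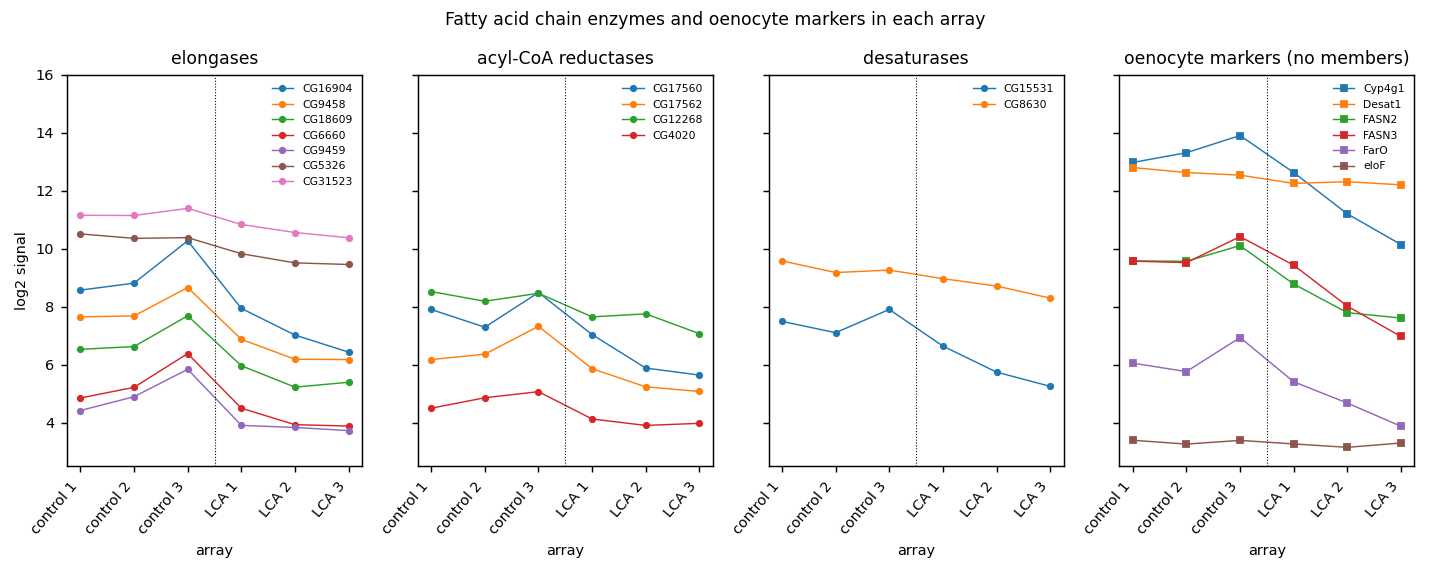
Log2 signal in each array (x axis, control arrays 1 to 3, then LCA arrays 1 to 3) of the member elongases, acyl-CoA reductases and desaturases and of 6 oenocyte markers that are no members; each line is 1 gene and joins the arrays only to guide the eye. Control array 3 is the peak for most elongases and for Cyp4g1, FASN2, FASN3 and FarO, which step down in the LCA arrays, while Desat1 differs by −0.40 and eloF, near the bottom of the scale, by −0.11.

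Control array 3 lay above the mean of the other control arrays by a median of 0.89 in the 13 enzymes and 0.13 in the other members. Over the whole families this differed. The median signal relative to each gene's mean was highest in control array 3 for elongases (0.32). It was highest in control array 2 for reductases (0.25) and in control array 1 for desaturases (0.34). The summed oenocyte marker signal was highest in control array 3. The log2 of that sum was 14.03, 14.13 and 14.54 in the control arrays and 13.59, 12.95 and 12.59 in the LCA arrays. All 6 markers were lower in mean and 5 did not overlap, and the median difference was −1.64. The markers eloF, FarO and Desat1 were also counted in the enzyme families above, so the list is not separate from them. Among all 11982 genes, 1792 were lower without overlap. Cyp4g1, the cytochrome P450 that cuts aldehydes to hydrocarbons in oenocytes, read 12.97, 13.31 and 13.90 in the control arrays and 12.62, 11.20 and 10.14 in the LCA arrays. Its order of arrays, control 3, 2 and 1 followed by LCA 1, 2 and 3, was also the order in 24 members (21.4%). Among them were CG16904, CG9458, CG9459, CG6660 and CG17562 of the 13 enzymes. Members outside these families had it too, such as CG9616, CG4666, CG15293 and CG9485. The rest of the 13 enzymes had other orders. Of the 1792 genes that were lower without overlap, 104 (5.80%) had the order of Cyp4g1. These 1792 genes include the members and needed no minimum difference, so the shares are not like for like. In these whole-fly pools, fewer cells of a type and less RNA per cell cannot be told apart. Whether the oenocyte signal accounts for the members' differences was not tested.

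Other members act on stored fat and on small lipids. CG18301, of the acid lipase family, read 8.08, 7.94 and 8.06 under control and 6.92, 6.29 and 6.17 under LCA (−1.57 ± 0.20). Its control arrays lay close together, and its gap to the highest LCA array, 1.02, was the widest of all members. CG5966, a lipase of the pancreatic type, read 9.95, 9.65 and 10.28 under control and 9.06, 8.60 and 8.98 under LCA (−1.08 ± 0.19), and here LCA array 2 was the lowest. CG17292, of the same type, was the member nearest the threshold and read 9.45, 9.46 and 9.56 under control and 9.06, 8.95 and 8.69 under LCA (−0.59 ± 0.12). CG6432, an acyl-CoA synthetase, was dim and read 4.996, 4.89 and 6.06 under control and 4.59, 3.995 and 3.87 under LCA (−1.16 ± 0.34), with control array 3 above the other control arrays by 1.11. CG9265, a short-chain dehydrogenase with the synonym of human HSD17B11 in the gene table, read 8.74, 8.47 and 8.61 under control and 7.90, 7.74 and 7.60 under LCA (−0.86 ± 0.12), and its groups were far apart for their spread.

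Members of carbohydrate and amino acid metabolism differed less, and most had LCA array 3 well below the others. CG9485, the glycogen debranching enzyme, read 10.17, 10.21 and 10.49 under control and 9.95, 9.82 and 9.18 under LCA (−0.64 ± 0.21), and its difference was −0.40 without LCA array 3. CG5171, a trehalose phosphatase, read 9.41, 9.43 and 9.48 under control and 8.86, 8.89 and 8.47 under LCA (−0.70 ± 0.13), and was at −0.56 without that array. CG11899, the phosphoserine aminotransferase of serine synthesis, read 9.55, 9.68 and 9.77 under control and 9.20, 9.14 and 8.75 under LCA (−0.64 ± 0.14). In each of these genes LCA array 3 was the lowest, and LCA arrays 1 and 2 lay close to each other. CG7560, the methylenetetrahydrofolate reductase of the folate cycle, read 7.71, 7.61 and 7.997 under control and 7.17, 7.05 and 6.60 under LCA (−0.84 ± 0.18). The aminotransferase CG8745 read 10.22, 10.64 and 10.09 under control and 10.02, 9.94 and 9.005 under LCA (−0.67 ± 0.29), and its groups came within 0.08 of each other. It was at −0.34 without LCA array 3.

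Kunitz-type inhibitors, small secreted proteins that block serine proteases, were mostly lower by like amounts in the 3 LCA arrays. CG10031 read 8.95, 9.02 and 9.13 under control and 8.21, 8.21 and 8.16 under LCA (−0.84 ± 0.09). Both groups of CG10031 were tight, with an SD of 0.09 in control and 0.03 in LCA arrays. CG16704 read 10.08, 10.13 and 10.39 under control and 9.52, 9.52 and 9.43 under LCA (−0.71 ± 0.11). CG3513, its direct neighbour, read 8.34, 8.26 and 8.49 under control and 7.75, 7.43 and 7.55 under LCA (−0.79 ± 0.12). CG31778 read 7.63, 7.46 and 7.91 under control and 6.90, 6.71 and 6.61 under LCA (−0.93 ± 0.14). In these 4 genes LCA array 3 differed from the mean of the other LCA arrays by 0.20 or less. CG3604, the neighbour of CG10031, read 9.45, 8.99 and 9.34 under control and 8.83, 8.81 and 8.25 under LCA (−0.63 ± 0.20), and there LCA array 3 was lower than that mean by 0.57. Of 10 measured inhibitors on the list, 9 were lower, all 9 without overlap, with a median of −0.60. Of these 9, 5 are members, which cannot overlap by the rule. Over all 11982 genes, 1792 were lower without overlap. IM33, a member of the family released into the blood on infection, was at −0.41, and CG15418 was higher (0.47).

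Serine proteases and their homologues made up 10 members, 5 of each kind by their synonyms. They were 5.92% of the 169 CG-numbered genes with such a synonym, and of these 169, 94 were lower in mean, with a median of −0.02. CG30002 read 7.68, 7.84 and 7.78 under control and 6.93, 6.96 and 6.46 under LCA (−0.98 ± 0.15). CG4259, a homologue, read 5.73, 5.96 and 5.70 under control and 5.05, 4.82 and 5.10 under LCA (−0.81 ± 0.12), and CG11842 read 6.92, 6.95 and 6.85 under control and 6.34, 6.16 and 5.96 under LCA (−0.75 ± 0.11). In these 3 genes the control arrays lay close together, with gaps of 0.71, 0.60 and 0.51 to the highest LCA array. CG31326 and CG6067, brighter homologues, differed by −0.75 ± 0.18 and −0.68 ± 0.14. CG7829 read 5.84, 5.93 and 6.14 under control and 5.77, 5.46 and 4.70 under LCA (−0.66 ± 0.27), with LCA array 1 only 0.07 below the control arrays. Its second probe set was lower in every LCA array too, with a difference of −1.48.

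Immune and blood proteins without a name were also present. CG6426, a lysozyme of the invertebrate type, read 10.22, 10.34 and 10.50 under control and 9.75, 9.66 and 9.31 under LCA (−0.78 ± 0.14). All 5 measured lysozymes of this type were lower, 3 of them without overlap, with a median of −0.30. Of these 3, 1 is the member CG6426, which cannot overlap by the rule. Lower without overlap were 1792 of all 11982 genes. CG16756, of the lysozyme family found in eggs and saliva, read 9.31, 9.34 and 9.46 under control and 8.62, 8.68 and 8.12 under LCA (−0.90 ± 0.16). In CG6426 and CG16756 LCA array 3 was the lowest and the gaps between the diets were 0.47 and 0.63. CG11854, of the juvenile hormone binding family, read 8.09, 7.60 and 8.22 under control and 6.54, 7.05 and 6.59 under LCA (−1.24 ± 0.21). Unlike most members it had LCA array 1 as its lowest. Jhbp7, a named relative that lies 2 genes away, met the same rule with a difference of −0.71.

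A few members had LCA array 3 far below the other LCA arrays. CG8343, a C-type lectin, read 11.02, 10.86 and 10.74 under control and 10.48, 10.55 and 7.97 under LCA (−1.21 ± 0.66). CG11211, the lectin gene beside it, read 8.83, 8.44 and 8.73 under control and 8.12, 7.80 and 5.94 under LCA (−1.38 ± 0.54). LCA array 3 minus the mean of the other LCA arrays was −2.54 in CG8343 and −2.02 in CG11211. CG8329, a serine protease, read 9.99, 9.80 and 9.90 under control and 9.50, 9.29 and 7.21 under LCA (−1.23 ± 0.57). CG3088, a serine protease homologue, read 9.51, 9.33 and 9.33 under control and 8.66, 8.65 and 7.08 under LCA (−1.26 ± 0.42). Without LCA array 3 the differences were −0.36 in CG8343, −0.71 in CG11211, −0.50 in CG8329 and −0.73 in CG3088. The difference shrank by more than 1.5 times in 10 members without that array. These were the 4 genes just given, CG8745 and CG9485 above, and CG32447 (−0.49), CG7829 (−0.36), CG13309 (−0.37) and CG31106 (−0.39, a transporter of the major facilitator type). Leaving out control array 1 had this effect on CG5773 alone, which read 11.31, 10.26 and 9.91 under control and 9.40, 9.38 and 9.55 under LCA and went from −1.05 to −0.64.

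Over all members, 74 kept a difference past the threshold without LCA array 3 and the median was −0.67. Without control array 3, 101 did, with a median of −0.73. The log2 of the summed midgut marker signal was 14.91, 14.98 and 14.07 in the control arrays and 14.74, 14.86 and 14.56 in the LCA arrays, so LCA array 3 was the lowest LCA array but lay above control array 3. Fat body markers were lowest there, at 14.56, against 14.94 and 14.89 in the other LCA arrays and 15.06 to 15.17 in the control arrays. All 13 measured fat body markers were lower, 8 without overlap, with a median of −0.38. Among all 11982 genes, 1792 were lower without overlap, and the share lower in mean was not counted. The Malpighian tubule markers were at 11.05 in LCA array 3 and at 11.37 to 11.59 in the other arrays. What these tissues contribute to the members' signals was not tested.

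Transporters and further enzymes filled the remaining role groups. CG12990, of an acyltransferase family, read 10.03, 9.57 and 9.87 under control and 8.996, 8.84 and 7.95 under LCA (−1.23 ± 0.28). CG7910, an amidase, read 8.93, 9.10 and 9.85 under control and 8.72, 8.26 and 8.16 under LCA (−0.91 ± 0.27). CG3597, with biliverdin reductase among its synonyms, read 9.08, 8.93 and 9.25 under control and 8.46, 8.67 and 7.82 under LCA (−0.77 ± 0.22). LCA array 3 was the lowest in all 3, and in CG7910 control array 3 stood above the other control arrays. CG4822, an ABCG-type transporter, read 9.46, 9.10 and 9.42 under control and 8.78, 8.32 and 8.58 under LCA (−0.76 ± 0.15). CG33282, a sugar transporter of the major facilitator type, read 7.36, 6.50 and 6.82 under control and 6.20, 6.44 and 5.92 under LCA (−0.71 ± 0.24). Its gap was 0.06, so the diets almost met. CG2663, of a family that carries small lipids, read 6.75, 6.19 and 6.27 under control and 5.75, 5.57 and 5.77 under LCA (−0.71 ± 0.16), with LCA array 2 the lowest. CG8034, another transporter, and the short-chain dehydrogenases CG9360 and CG2070 differed by −0.69, −0.67 and −0.65, each with LCA array 3 the lowest.

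**Figure D3:**
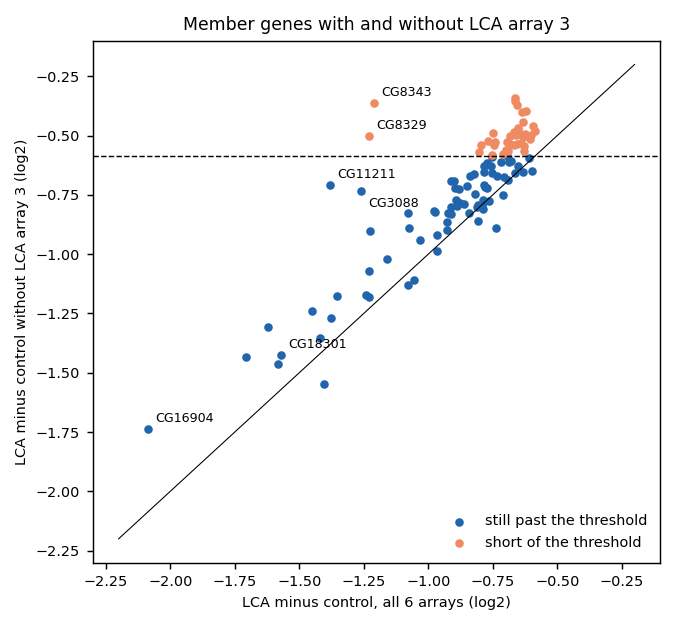
Difference between the diets of each member gene (log2, LCA minus control) from all 6 arrays (x axis) and without LCA array 3 (y axis); the dashed line is the threshold of the rule and the solid line marks equal values. Most points lie above the line of equality, 74 stay past the threshold, and CG8343, CG8329, CG11211 and CG3088 lie farthest from the line.

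Genes with the least spread for their difference had no outstanding array. CG13877, which was given no role here, read 9.05, 9.01 and 8.96 under control and 8.17, 8.22 and 8.27 under LCA (−0.79 ± 0.08). The difference was 17.0 times the pooled SD of its groups, the highest such ratio among the members. CG15203 read 6.79, 6.65 and 6.84 under control and 5.98, 5.97 and 5.97 under LCA (−0.79 ± 0.09), and its LCA arrays were nearly equal. CG32695 read 9.83, 9.80 and 9.83 under control and 8.99, 9.08 and 8.76 under LCA (−0.88 ± 0.11). CG32032 read 8.04, 8.27 and 8.37 under control and 7.44, 7.22 and 7.24 under LCA (−0.93 ± 0.12). In these 4 genes the gap between the groups was 0.60 or more. CG30154 read 7.09, 6.99 and 6.86 under control and 6.39, 6.27 and 6.39 under LCA (−0.63 ± 0.10). CG33474, one of the 6 dimmest members, read 5.11, 5.24 and 5.29 under control and 4.57, 4.44 and 4.28 under LCA (−0.78 ± 0.11). Both had gaps of about 0.5 between the lowest control and the highest LCA array (0.47 and 0.53).

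**Figure D4:**
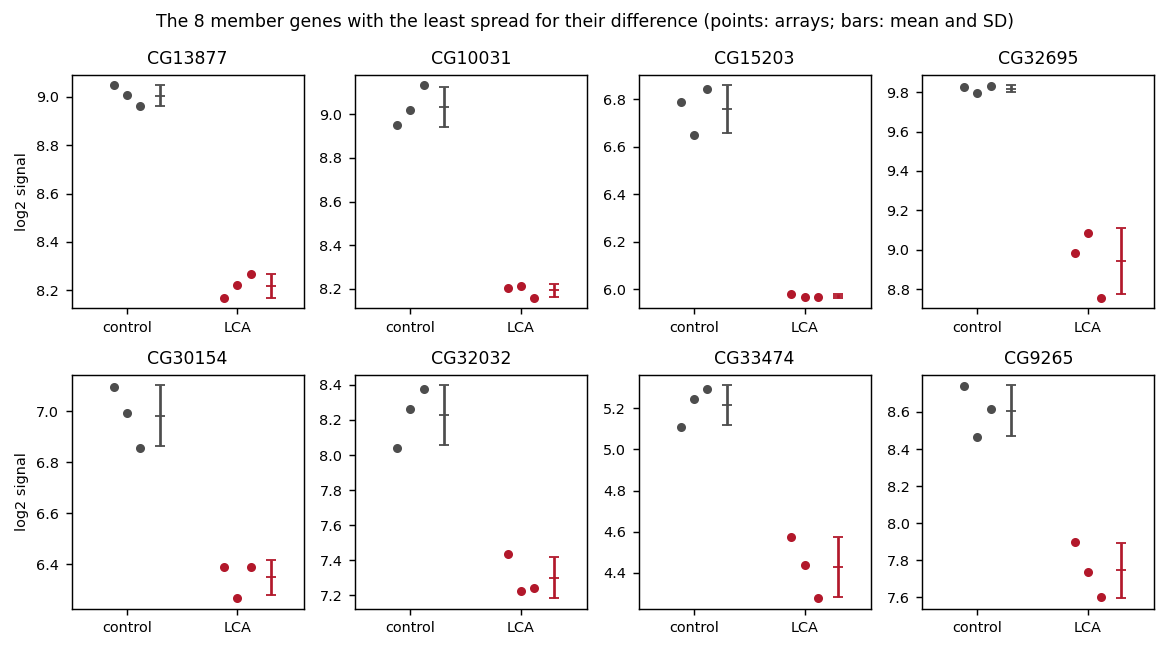
Log2 signal of the 8 member genes whose difference was largest relative to the pooled SD; points are arrays, bars the mean and SD of 3 arrays per diet, and each panel has its own y axis. The LCA points lie below the control points in each panel, with gaps from 0.47 in CG30154 to 0.74 in CG10031.

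The 6 brightest members differed by −0.89 to −0.63, and LCA array 3 was the lowest array in each. CG1648 had the highest mean signal and read 12.18, 12.32 and 12.57 under control and 11.79, 11.58 and 11.50 under LCA (−0.73 ± 0.13). CG16926 read 11.66, 12.08 and 12.09 under control and 11.15, 11.28 and 10.76 under LCA (−0.88 ± 0.18). CG10433 read 11.71, 11.74 and 11.90 under control and 11.29, 11.14 and 11.02 under LCA (−0.63 ± 0.11). In these 3 genes LCA array 3 minus the mean of the other LCA arrays was −0.18, −0.46 and −0.19. CG15293 read 11.37, 11.52 and 11.66 under control and 10.78, 10.66 and 10.45 under LCA (−0.89 ± 0.12). CG9691 read 11.37, 11.55 and 11.74 under control and 10.92, 10.97 and 10.62 under LCA (−0.72 ± 0.14), and CG10680 read 11.55, 11.49 and 11.62 under control and 10.95, 11.11 and 10.53 under LCA (−0.69 ± 0.16). In these 3 that value was −0.27, −0.33 and −0.50, and without LCA array 3 CG10680 was at −0.53 and CG10433 at −0.57, short of the threshold. The 6 genes lay above 10 on the log2 scale in every array, and none of them was placed in a role group.

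Signal was higher in the members than in CG-numbered genes at large. The median mean signal was 7.78 for members, 7.08 for CG-numbered genes and 7.40 for all genes. At or above the median of all genes lay 65 members (58.0%) and 44.7% of CG-numbered genes. Above the 75th percentile of all genes, 8.77, lay 39 members (34.8%) and 20.7% of CG-numbered genes, and below the 25th percentile, 5.55, lay 10 members (8.93%) and 28.9% of CG-numbered genes. Differences of dim probe sets can be compressed on such arrays, so the signal is not independent of the rule. In 16 members the LCA mean was below that 25th percentile. The dimmest member, CG31832, read 3.94, 4.10 and 4.91 under control and 3.43, 3.24 and 3.38 under LCA (−0.97 ± 0.25), and its LCA arrays lay near the bottom of the scale.

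**Figure D5:**
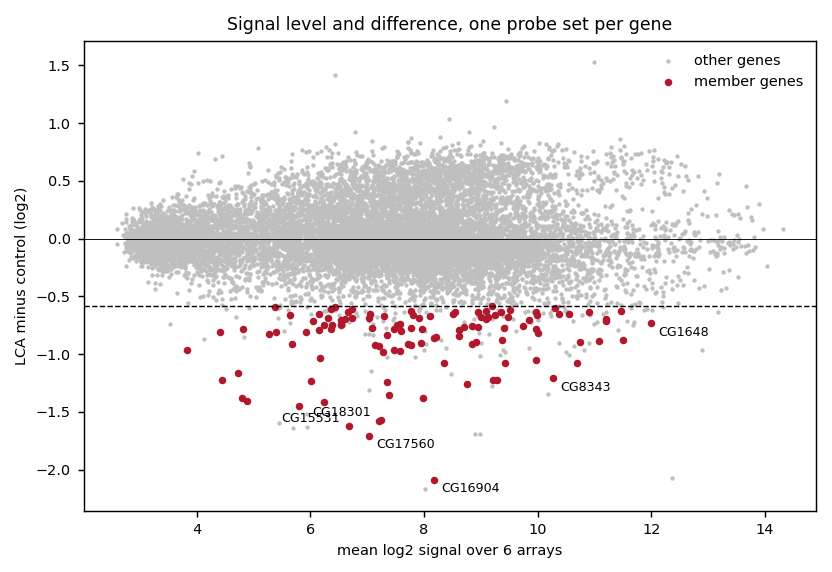
Mean log2 signal over the 6 arrays (x axis) and difference between the diets (y axis, log2, LCA minus control) of the 11982 genes, with the 112 members in red and the threshold of the rule as a dashed line. Members span signals from 3.83 to 11.99, and the largest differences lie at middle signals, with CG16904 at −2.09.

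The 12 largest differences also included 3 genes without a role. CG9616 read 6.31, 6.59 and 6.69 under control and 5.31, 5.27 and 4.66 under LCA (−1.45 ± 0.20), with all LCA arrays far below the control arrays. CG4666 read 7.68, 7.99 and 8.51 under control and 7.27, 6.50 and 6.35 under LCA (−1.35 ± 0.30). CG13215 read 6.15, 4.60 and 6.01 under control and 4.39, 3.69 and 4.47 under LCA (−1.40 ± 0.43). CG13215 had the widest control group of these, with control array 2 far below the others and only 0.13 above the highest LCA array. The 57 members without a role had differences from −1.45 to −0.59 with a median of −0.76, and 38 of them stayed past the threshold without LCA array 3.

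Several members lie side by side on the chromosome. In the order of protein-coding genes, 15 members had another member as direct neighbour, in 8 pairs. The elongases CG16904, CG9459 and CG9458 follow one another. The other pairs were the reductases CG17562 and CG17560, the lectins CG8343 and CG11211, the inhibitors CG16704 and CG3513 and CG3604 and CG10031, and CG14949 with CG1143 and CG15120 with CG16926. CG14949 read 8.57, 7.93 and 8.02 under control and 7.19, 7.49 and 7.11 under LCA (−0.91 ± 0.19), and CG1143 read 8.30, 8.05 and 8.13 under control and 7.57, 7.52 and 7.07 under LCA (−0.77 ± 0.15). CG15120 read 7.85, 7.94 and 8.21 under control and 7.53, 7.33 and 6.73 under LCA (−0.80 ± 0.22), and it lay beside the much brighter CG16926. LCA array 3 was the lowest array in all 4 genes. Probe sets of close copies may pick up each other's transcripts, so the values of neighbouring relatives are uncertain to that extent.

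Named genes that met the same rule also bordered on members. The lectin pair lay between Cyp6w1, a cytochrome P450 (−0.99), and Ptr (−0.68), so 4 genes in a row met the rule. Nepl6, of the neprilysin-like family, lay beside CG42369 (−0.83 and −0.68), and Sfp24Bb, a seminal fluid protein (−1.01), lay 2 genes from CG16704. The 182 measured direct neighbours that were not members had a median difference of −0.10, and 120 of them were lower in mean. They include Cyp6w1, Ptr and Nepl6, which met the rule. Over all genes the median was −0.0016, and the share of all genes lower in mean was not counted.

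The threshold divides genes of nearly equal values. Just inside it lay CG17646, a transporter of the ABCG family, with 10.63, 10.42 and 10.75 under control and 10.10, 10.11 and 9.79 under LCA (−0.60 ± 0.13). CG33120 read 6.96, 6.65 and 6.60 under control and 6.18, 5.999 and 6.24 under LCA (−0.60 ± 0.13), and CG7607 read 5.84, 5.78 and 5.40 under control and 5.14, 5.30 and 4.81 under LCA (−0.59 ± 0.17). Just outside lay CG30151 at −0.5819, CG3984 at −0.5810, CG31769 at −0.577 and CG3285 at −0.566, each with all LCA arrays below all control arrays. CG3984 read 7.72, 7.76 and 7.85 under control and 7.17, 7.28 and 7.13 under LCA, which is tighter than CG7607. A further 15 CG-numbered genes had a mean difference past the threshold and overlapping groups. CG31446 had the largest of these, −1.64, with control arrays at 7.61, 7.11 and 4.83.

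Second probe sets existed for 5 members, 6 in all. Of these, 4 were lower with LCA and 2 met the rule, in CG5326 and CG7829. Those of CG34376 (0.10) and CG42788 (0.13) were higher in mean and overlapped, and both were dimmer than the probe set that stood for the gene. That of CG9886, a glycerate kinase, was near the bottom of the scale and at −0.07, while its main probe set read 8.52, 8.49 and 8.92 under control and 7.88, 7.98 and 7.52 under LCA (−0.85 ± 0.17).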

How the data were processed

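Values were the log2 signals that the authors deposited for 18952 probe sets on 6 arrays, and they run from 2.32 to 14.64. How probes were summarised, background was corrected and arrays were scaled is not given in the sources used here. RNA was labelled as biotinylated cRNA on an Affymetrix platform, per the labels' protocols. Of the probe sets, 183 array controls were left out, 13647 had 1 gene symbol through the platform annotation, 402 had several and 4720 had none here. For 13544, a RefSeq gene table (assembly Release 6 plus ISO1 MT) gave current symbols, and it also gave gene order. The probe set with the highest mean stood for a gene.

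Differences are LCA minus control, with SE from limma 3.58.1 (R 4.3.3; lmFit and eBayes across 11982 genes, no covariate, Benjamini-Hochberg adjustment), tested on simulated data. SDs are over 3 arrays. The rule for genes named with their values was the 12 largest differences, the 6 brightest and 6 dimmest, the 8 with the least spread for their difference, direct neighbours and the 4 nearest the threshold on either side; others are named for their role. Members and lists were chosen with earlier results of these data known, and role groups and families with the members' values seen. No protein or promoter comparison was made.

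Alternatives were 2 normalizations, 2 choices of probe set, a filter and a floor on low values, probe sets of single transcripts, platform symbols, other thresholds and each array left out.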

Additional observations from a re-analysis of the deposited data

How the results depend on the processing

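All 112 members were lower in mean with LCA under both normalizations, the floor on low values and the mean of all probe sets. With an array left out they were lower by the rule itself, which sets every LCA array below every control array. Their median difference kept within the spread between replicates under each alternative. With each array left out in turn, the median lay between −0.87 and −0.67 and the rule took from 78 (without LCA replicate 3, 74 of them members) to 162 CG-numbered genes (without control replicate 3). It took 65 among genes at or above the median signal, 24 at 2-fold and 677 with no minimum difference. The probe set with the lowest mean turned CG34376 (0.10) and CG42788 (0.13) to higher. Over all genes the median was −0.0500 with arrays centred on their medians and between −0.0358 and 0.0266 with arrays left out. limma's adjusted threshold took 0 genes in each setting but 1: among genes at or above the median signal it took 5, all lower, where fewer genes were tested. With arrays left out it took 0 throughout, while the count at an unadjusted p under 0.05, 2169 with all arrays, was 1123 without LCA replicate 3, 1235 without control replicate 2, 1344 without LCA replicate 2 and 3881 without control replicate 3. Deviations of same-numbered arrays of the 2 diets had correlations of 0.31, −0.04 and 0.06 across genes for replicates 1, 2 and 3. Whether same-numbered arrays share more than a number was not tested. With the replicate number as a block, limma's adjusted threshold took 0 genes too, and the members' median stayed at −0.78. In that fit limma placed 2694 genes under an unadjusted p of 0.05, of which 1127 were lower and 1567 higher. Signal near the bottom of the scale limits the 10 dimmest members, whose differences may be compressed.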
